A study of Mus musculus with 12 samples.

Results

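Ddx58, Ddx60, Zbp1, Trim30a, Trim14, Ikbke, Nmi, Parp10 and Xaf1 encode proteins that sense nucleic acids inside the cell or act beside those sensors. The 9 genes were taken by their symbols from 4 deposited tables of differential expression and were set against 9338 genes that occur in at least 1 of the tables. RNA was sequenced from CD31+ lung cells, the cell fraction enriched for endothelial cells (ECs), of male C57Bl/6J mice killed at 30 weeks of age. All mice carried TET2 fl/fl alleles and were given tamoxifen (40 mg/kg, on 3 days) when 6 to 8 weeks old. TET2 KO mice also carried Cdh5-CreERT2, a tamoxifen-inducible Cre under the promoter of an endothelial cadherin gene, whereas WT mice were Cre-negative with the same floxed alleles. For 20 weeks mice ate chow, in which fat gave 13% of the kcal, or a diet high in fat (HFD, 60%), and each of the groups WT_CHOW, KO_CHOW, WT_HFD and KO_HFD held 3 mice. Between 36721391 reads (WT_CHOW replicate 2) and 56789100 reads (WT_HFD replicate 1) per library were counted on genes.

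Cytosolic sensors of viral or misplaced nucleic acid signal through adaptor proteins and the kinases TBK1 and IKKε to transcription factors of the IRF family, which switch on type I interferon. Secreted interferon then acts through STAT proteins on a large set of target genes, among them the sensors themselves, so that the sensor genes are both a source and a target of the interferon response. ECs line all vessels and are known to mount this response. DDX58, better known as RIG-I, binds double-stranded RNA with a free 5′ triphosphate, DDX60 is a related helicase that has been described as its cofactor, and ZBP1 binds left-handed (Z-form) nucleic acid and engages the kinase RIPK3.

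Each table lists only genes whose DESeq2 p-value, before adjustment, was under 0.05 in its own comparison, so a gene has values in a group only where a table covering that group lists it. KO_CHOW against WT_CHOW lists 8 of the 9 genes (not Xaf1), WT_HFD against WT_CHOW lists 8 (not Ikbke), KO_HFD against WT_HFD lists Nmi and Xaf1, and KO_HFD against KO_CHOW lists Xaf1. Nmi and Xaf1 thus have values in all 12 libraries, 6 genes have values in the 9 libraries other than KO_HFD, and Ikbke in the 6 chow libraries. Since a table holds no gene that missed its threshold, a count of listed genes that pass another test of the same libraries describes the listing as much as the genes. The share of all listed genes that pass is therefore given beside the first such count in each comparison.

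All 9 genes are protein-coding, and their coordinates in the tables equal those of GENCODE M21 on GRCm38 (mm10). Ddx58 lies at chr4:40203773-40239828 on the minus strand, Ddx60 at chr8:61928087-62038244 on the plus strand, Zbp1 at chr2:173206612-173218923 (minus), Trim30a at chr7:104409025-104465193 (minus) and Trim14 at chr4:46493781-46536141 (minus). Ikbke lies at chr1:131254343-131279606 (minus), Nmi at chr2:51948487-51973494 (minus), Parp10 at chr15:76231174-76243441 (minus) and Xaf1 at chr11:72301629-72313733 (plus). Trim14 overlaps Nans, and Ikbke overlaps Gm28914 and Gm28913, each on the opposite strand. Parp10 overlaps Plec on the same strand, and Trim30a is 1 of a cluster of similar genes. Reads of these genes may thus be shared with their neighbours.

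Interferon-activated factors and the IRFs bind a DNA element called ISRE, whose core is GAAA, any 2 bases, GAAA. The promoters below are shown because they hold that core. RefSeq promoter windows (GRCm38.p6, from 250 bases before to 50 after the gene's start) were at hand for 6 of the 9 genes, with 7 windows in all. The core was found on either strand in 4 of these 7 windows, which belong to 3 genes, and in 3.44% of all 32851 windows. Each sequence runs 5′ to 3′ on the gene's strand from 100 bases before to 50 after the start, and capitals mark the core or its reverse complement. For Ddx60 (chr8:61927987-61928136, plus strand) 2 copies begin 53 and 19 bases before the start. For Trim30a (chr7:104465144-104465293, minus strand) the core lies on the opposite strand, beginning 36 bases before the start, and a second Trim30a window held it too. For Ddx58 (chr4:40239776-40239925, minus strand) it lies on the opposite strand just after the start.
Ddx60: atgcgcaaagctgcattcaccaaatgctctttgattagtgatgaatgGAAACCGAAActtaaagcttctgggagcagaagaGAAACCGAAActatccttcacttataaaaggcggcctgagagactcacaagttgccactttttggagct
Trim30a: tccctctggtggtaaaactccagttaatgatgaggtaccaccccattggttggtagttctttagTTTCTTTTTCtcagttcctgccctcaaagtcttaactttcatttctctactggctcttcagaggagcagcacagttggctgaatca
Ddx58: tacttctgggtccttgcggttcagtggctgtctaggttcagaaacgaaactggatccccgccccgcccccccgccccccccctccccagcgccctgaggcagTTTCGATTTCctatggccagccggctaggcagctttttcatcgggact
The windows of Ikbke, Nmi and Xaf1 did not hold these letters. The core of the GAS element, which binds dimers of STAT proteins (TTC, any 3 bases, GAA), was found in 8.30% of all windows and in 0 of the windows of the 6 genes. A match in letters does not show that a factor binds there.

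CD31+ selection was checked against cell type markers. The CD31 gene itself, Pecam1, had between 36.0 and 146 FPKM (fragments per length of transcript and depth of library) in the 9 libraries that have a value, and Cdh5 had 47.8 to 289.7 FPKM. Genes of other lung cells were abundant in the same libraries. Scgb1a1 of the airway epithelium reached 1991 to 5481 FPKM over 9 libraries, and Chil3 and Lyz2 of macrophages 745 to 2802 (12 libraries) and 1948 to 5381 FPKM (6 libraries). None of the 49 markers with values was at 0 in any library. In such bulk samples, fewer cells of a type and less RNA per cell cannot be told apart. Tet2 was listed only for WT_HFD against WT_CHOW, so the genotype of the libraries was not checked here from its level.

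In WT_CHOW the 9 genes differed widely in FPKM. Trim30a, an interferon-induced TRIM protein described as a brake on Toll-like receptor signalling, was highest at 18.6 ± 2.93 FPKM (SD, n = 3). Parp10, which attaches single ADP-ribose units to proteins, followed at 11.3 ± 1.35, and Ddx58 at 8.98 ± 0.762. The ranges of these 3 genes over the libraries did not overlap. Nmi, a binding partner of STAT and MYC proteins, had 7.70 ± 0.965 FPKM, Ikbke (the kinase IKKε) 5.60 ± 0.971, Zbp1 5.54 ± 1.18, Xaf1 4.16 ± 1.02 and Trim14, an adaptor on mitochondria beside MAVS, 3.87 ± 0.354. From Ddx58 down to Trim14 each gene's range overlapped that of the next. Ddx60 was lowest at 1.72 ± 0.100 FPKM, below every Trim14 value. Raw counts behind these WT_CHOW values ran from 487 to 3497 reads per library.

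**Figure D1:**
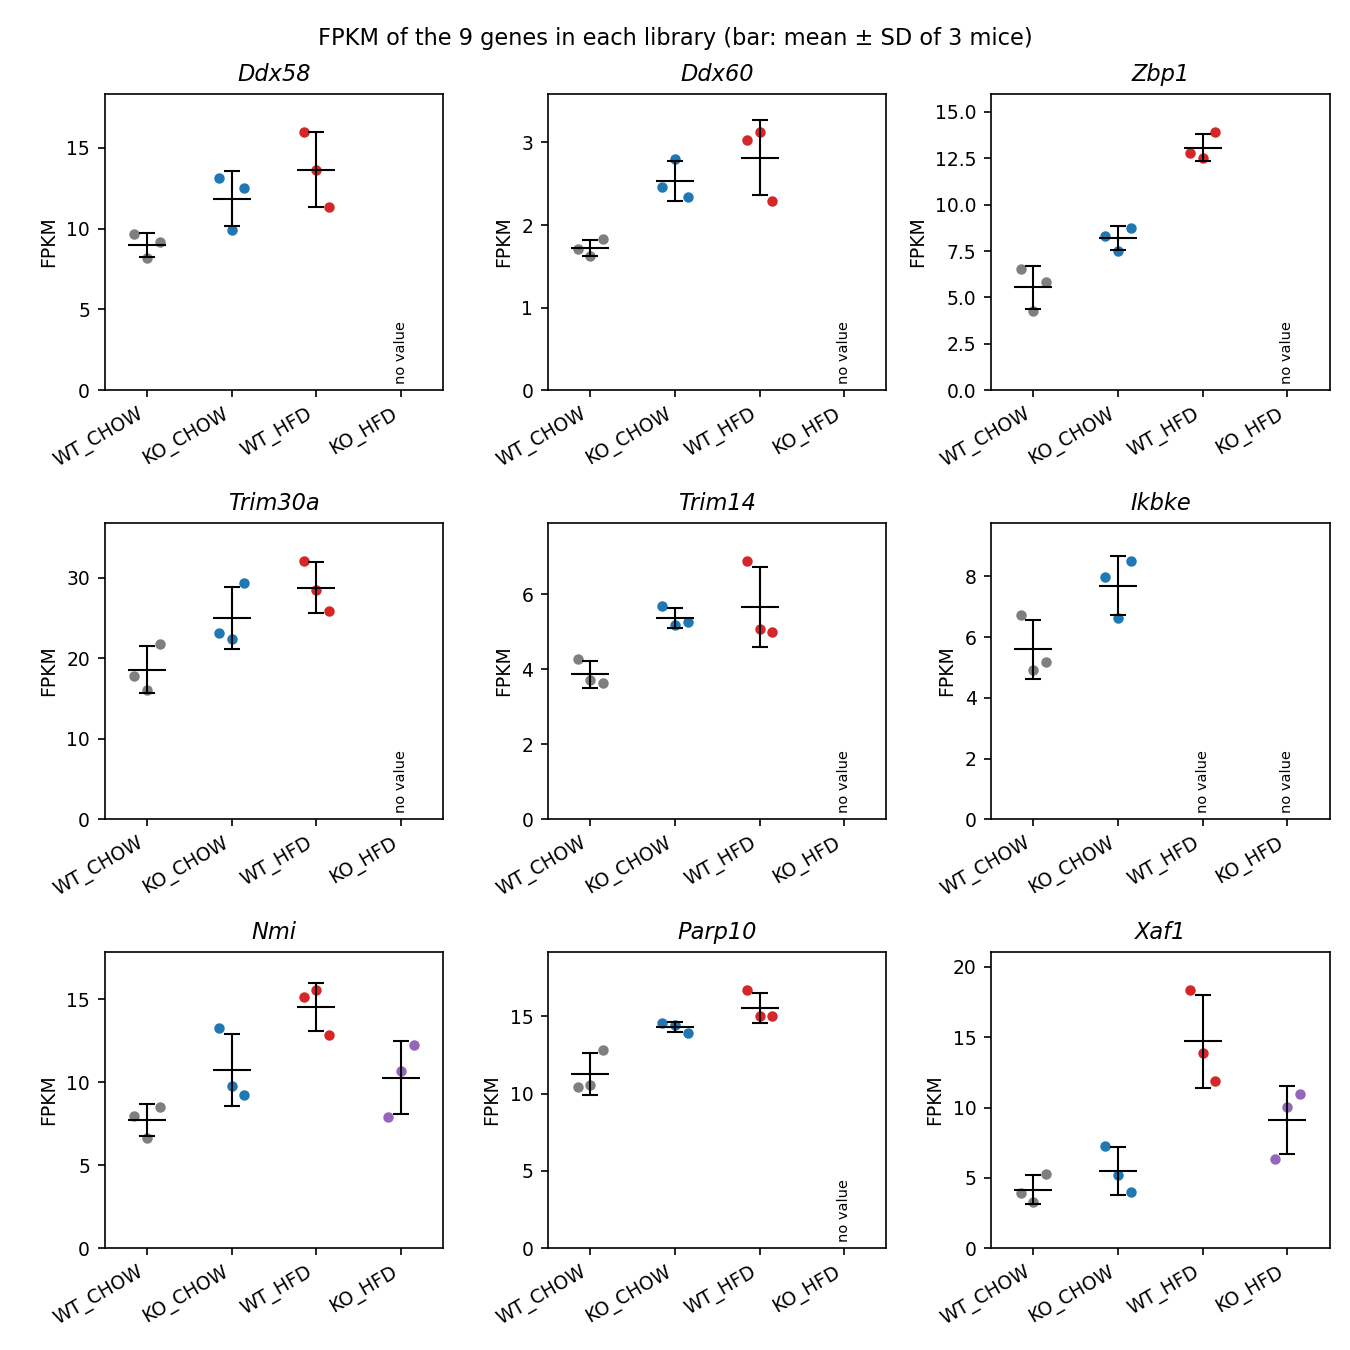
FPKM of each of the 9 genes (vertical axes from 0) in the libraries of the 4 groups; points are mice, horizontal bars and whiskers the mean ± SD of 3 mice, and "no value" marks groups for which no table lists the gene. Every listed WT_HFD library lies above every WT_CHOW library, and in KO_CHOW this holds for 7 of 8 listed genes, Ikbke being the exception.

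The first comparison asked what loss of endothelial TET2 does on chow. All 8 listed genes were higher in KO_CHOW than in WT_CHOW, by 0.35 to 0.56 on the log2 scale, or 1.27 to 1.47 times. edgeR called all 8 at an unadjusted p under 0.05, against 30.6% of the 1298 listed genes that it called higher. In either direction it called 994 of the 1298. Benjamini-Hochberg adjustment was made over 18463 genes, the number that the authors adjusted over. After it 0 of the 8 had an adjusted p under 0.05, by edgeR, DESeq2 or limma. By edgeR the adjusted p was under 0.05 for 0% of all listed genes. The median log2 fold change of the 8 was 0.46, and that of all listed genes -0.37.

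Among the RNA sensors, Ddx60 had 2.47, 2.80 and 2.34 FPKM in KO_CHOW replicates 1 to 3 and 1.72, 1.63 and 1.83 in WT_CHOW. The groups did not overlap and the WT_CHOW values were the tighter. By edgeR the log2 fold change was 0.55 with an SE of 0.14 and an adjusted p of 0.792. Ddx58 had 13.2, 9.91 and 12.5 FPKM in KO_CHOW and 9.65, 8.15 and 9.14 in WT_CHOW, so that KO_CHOW replicate 2 lay only just above the highest WT_CHOW library (log2 fold change 0.40, SE 0.16). Zbp1 had 8.32, 7.48 and 8.75 FPKM against 6.55, 4.24 and 5.82. Its log2 fold change was 0.56 (SE 0.19), the largest of the 8 but close to that of Ddx60. Without WT_CHOW replicate 2 the order turned, with 0.51 for Ddx60 and 0.39 for Zbp1. WT_CHOW replicate 2 was the lowest library for Zbp1 and for 6 of the 8 genes with values in 9 libraries.

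Of the adaptor and kinase genes, Trim14 had 5.69, 5.19 and 5.26 FPKM in KO_CHOW and 4.28, 3.71 and 3.62 in WT_CHOW (log2 fold change 0.47, SE 0.14). The KO_CHOW libraries stood well apart from WT_CHOW. Ikbke had 7.97, 6.61 and 8.50 FPKM against 6.71, 4.91 and 5.18, and was the exception in which the groups overlapped, KO_CHOW replicate 2 lying under WT_CHOW replicate 1 (log2 fold change 0.45, SE 0.18). Parp10 rose least (log2 fold change 0.35, SE 0.13), and its 3 KO_CHOW libraries were close together, at 13.9 to 14.6 FPKM against 10.4 to 12.8. Trim30a had a log2 fold change of 0.43 (SE 0.18) and Nmi of 0.48 (SE 0.19), with KO_CHOW replicate 3 highest for Trim30a and replicate 1 highest for Nmi. The groups lay apart for 7 of the 8 genes, against 74.7% of all listed genes.

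The call of these genes rested on few mice. With each library left out in turn, edgeR called 2 to 7 of the 8, while 131 to 373 of the 1298 listed genes were called higher. Without WT_CHOW replicate 2 it called 2, Ddx60 and Trim14, without KO_CHOW replicate 3 it called 3, without KO_CHOW replicate 1 it called 4 and without WT_CHOW replicate 1 it called 5. Ddx60 and Trim14 were called in each of the 6 fits. Without KO_CHOW replicate 1 the log2 fold change of Nmi went from 0.48 to 0.30.

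T cell and natural killer (NK) cell genes moved the same way in this comparison. Of 10 T cell markers 5 were listed, all higher in KO_CHOW, with 3 called and a median log2 fold change of 0.68. Their summed FPKM was 112, 84.2 and 117 in KO_CHOW and 80.4, 51.0 and 63.4 in WT_CHOW, with Lck the most abundant. The NK cell markers Nkg7 and Prf1 were the 2 listed of 8, both called higher, with sums of 28.5, 26.5 and 40.3 FPKM against 23.7, 14.8 and 17.7. Lower in KO_CHOW were 3 listed epithelial markers of 10, summed at 2879, 2363 and 3104 against 4299, 5643 and 5633 FPKM (Scgb1a1 the most abundant), and 3 fibroblast markers of 8, summed at 2.45, 2.61 and 3.31 against 6.78, 7.50 and 3.45 FPKM (Dcn). Ccr2, the listed gene of 10 for monocytes and macrophages, was called higher, at 9.55, 12.9 and 12.3 against 5.95, 4.42 and 6.79 FPKM. No endothelial, B cell, dendritic cell or neutrophil marker was listed. The part of these cell types in the differences of the 8 genes was not tested.

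The second comparison asked what HFD does in WT mice, and used the same 3 WT_CHOW libraries as reference, so any deviation of these mice is carried into each. All 8 listed genes were higher on HFD, by 0.47 to 1.83 on the log2 scale, or 1.39 to 3.55 times. edgeR called all 8, against 42.4% of the 7330 listed genes that it called higher. In either direction it called 6712 of the 7330. The groups lay apart for all 8, against 86.5% of all listed genes. Adjusted over 23768 genes, the authors' number here, edgeR's p was under 0.05 for Xaf1, Zbp1, Nmi and Ddx60, 4 of 8, against 18.7% of listed genes. The median log2 fold change was 0.68 for the 8 genes and -0.32 for all listed genes, the latter turning to 0.27 with a filter on low counts.

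Xaf1, an interferon-induced antagonist of the cell death inhibitor XIAP, changed most. It had 18.3, 13.8 and 11.9 FPKM in WT_HFD replicates 1 to 3 and 3.96, 3.25 and 5.26 in WT_CHOW. The lowest WT_HFD library was more than double the highest WT_CHOW library. By edgeR the log2 fold change was 1.83 with an SE of 0.23 and an adjusted p of 0.0357, which ran from 3.26e-09 to 0.143 over the alternatives. Zbp1 followed with 12.8, 12.5 and 13.9 FPKM against 6.55, 4.24 and 5.82, which edgeR put at 1.24 ± 0.18 (log2 fold change ± SE) with an adjusted p of 0.0357. Its WT_HFD libraries were nearly alike.

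Nmi had 15.2, 15.5 and 12.9 FPKM in WT_HFD and 7.98, 6.63 and 8.50 in WT_CHOW, which edgeR put at 0.92 ± 0.15 (log2 fold change ± SE) with an adjusted p of 0.0366. The RNA sensors were nearer to each other. Ddx60 had 3.03, 3.12 and 2.30 FPKM on HFD and 1.72, 1.63 and 1.83 on chow (edgeR log2 fold change 0.71 ± 0.15 SE and adjusted p = 0.0466). Ddx58 had 16.0, 13.6 and 11.3 against 9.65, 8.15 and 9.14 (edgeR log2 fold change 0.61 ± 0.15 SE and adjusted p = 0.0594). For both, WT_HFD replicate 3 was the lowest HFD library, as it was for 7 of the 8 genes with values in 9 libraries.

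Trim30a had 32.1, 28.4 and 25.8 FPKM on HFD and 17.8, 16.1 and 21.8 on chow, which edgeR put at 0.64 ± 0.15 (log2 fold change ± SE) with an adjusted p of 0.0551. Trim14 had 6.89, 5.08 and 5.003 FPKM against 4.28, 3.71 and 3.62, where WT_HFD replicate 1 lay well above the other HFD libraries (edgeR log2 fold change 0.55 ± 0.17 SE and adjusted p = 0.0819). Parp10 rose least again, with 16.7, 15.0 and 15.0 FPKM against 10.4, 10.5 and 12.8 (edgeR log2 fold change 0.47 ± 0.13 SE and adjusted p = 0.0658). All 8 genes were called in each of the 6 fits that left out 1 library, in which 2030 to 2650 of the 7330 listed genes were called higher. The adjusted p was less stable, with 0 to 5 of the 8 genes under 0.05 in those fits, and 0 to 1594 of the 7330 listed genes.

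**Figure D2:**
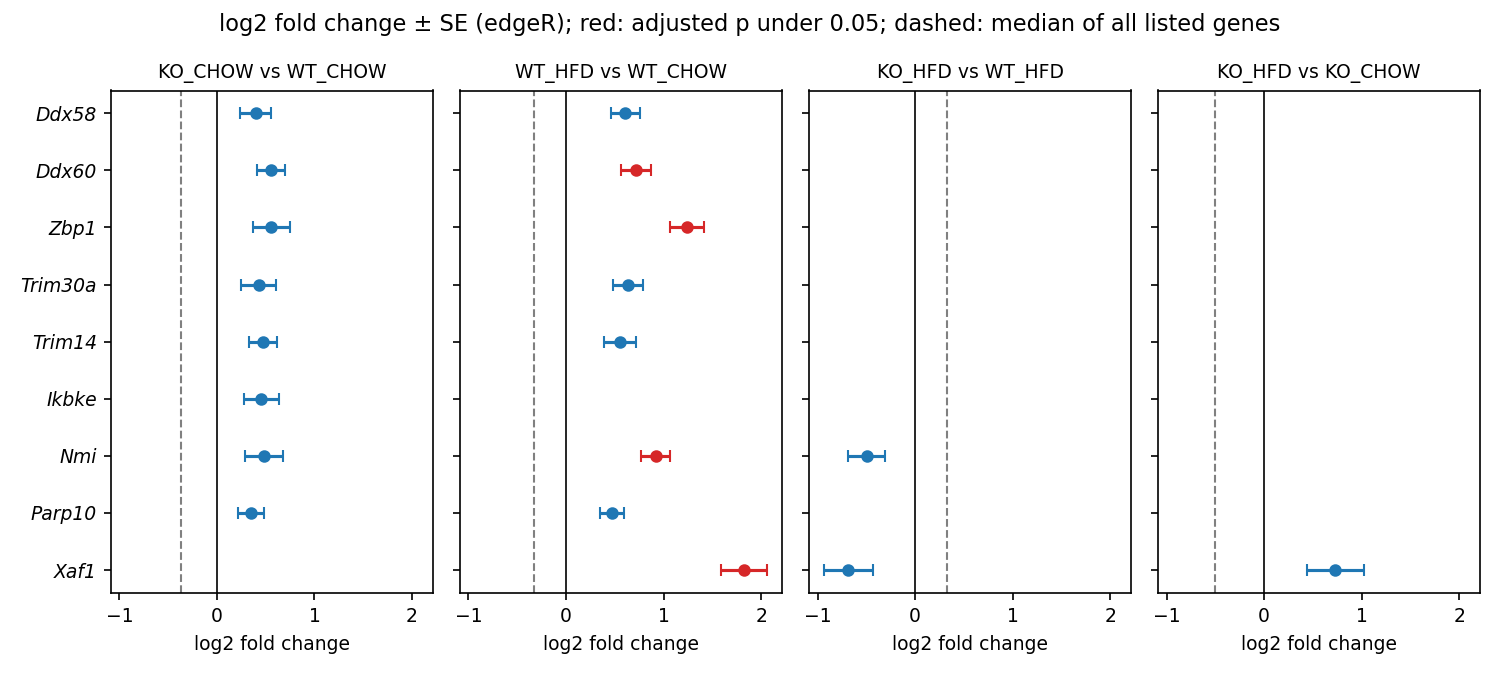
log2 fold change ± SE of each listed gene (horizontal axes, edgeR) in the 4 comparisons; red marks an adjusted p under 0.05, the solid line 0 and the dashed line the median of all listed genes, whose sign turns with a filter on low counts for WT_HFD against WT_CHOW and for KO_HFD against WT_HFD. Listed genes lie right of 0 in both comparisons against WT_CHOW, from 0.35 to 0.56 for KO_CHOW and from 0.47 to 1.83 for WT_HFD, and Nmi and Xaf1 lie left of 0 for KO_HFD against WT_HFD.

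Endothelial marker levels differed between the WT libraries as well. All 10 endothelial markers were listed for WT_HFD against WT_CHOW and higher on HFD, 9 of them called, with a median log2 fold change of 1.34. Their summed FPKM was 1364, 1114 and 770.0 in WT_HFD and 309, 263 and 741 in WT_CHOW, with Cldn5 the most abundant. WT_CHOW replicate 3 thus stood apart from the other chow libraries and close to WT_HFD replicate 3. Leaving out WT_CHOW replicate 3 widens the endothelial difference between the diets and so is no check on it. All 8 listed genes were called in that fit, with 5 at an adjusted p under 0.05 by edgeR, against 0 or 1 in the other 5 fits. Of all 7330 listed genes, 1594 had an adjusted p under 0.05 in that fit, against 0 to 322 in the other 5.

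NK cell markers were higher on HFD for 7 of 8, all 7 called, with a median log2 fold change of 1.76. They summed to 129, 101 and 168 FPKM in WT_HFD and 58.9, 33.2 and 39.7 in WT_CHOW, with Gzma the most abundant. The T cell markers Cd8a (not with TMM scaling) and Lck, 2 of 10, were called higher, with sums of 51.4, 42.9 and 34.6 against 37.1, 23.6 and 26.3 FPKM. Monocyte and macrophage markers were divided, 3 called higher and 3 lower of 10, and their sum, led by Chil3, was 1281, 966 and 1711 FPKM on HFD and 1663, 3057 and 2611 on chow. The epithelial list (6 of 10 listed) was divided too, with 2 called higher and 2 lower. Of 8 dendritic cell markers 2 were listed, of which Zbtb46 was called higher and Siglech did not pass. Retnlg of neutrophils, 1 of 6, was called lower, and the fibroblast list had 2 of 8 listed, both higher, with 1 called. The part of these shifts in the differences of the 8 genes was not tested.

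**Figure D3:**
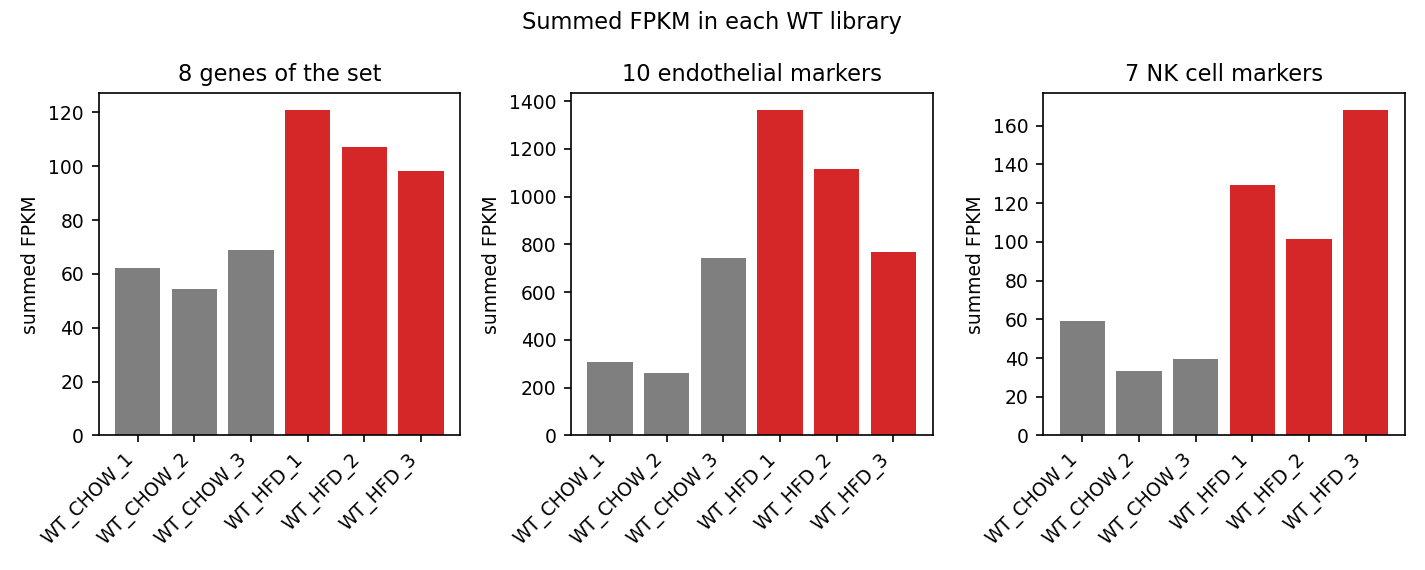
Summed FPKM (vertical axes from 0) of the 8 genes with values in 9 libraries, of the 10 endothelial and of the 7 listed NK cell markers, in each WT_CHOW (grey) and WT_HFD (red) library. The sums of the 8 genes run from 54.3 to 68.8 on chow and from 98.1 to 121 on HFD, and the endothelial sums from 263 to 741 and from 770.0 to 1364.

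The third comparison set KO_HFD against WT_HFD. Here 2 of the 9 genes were listed, and both were called lower in KO_HFD, against 39.1% of the 3939 listed genes that were called lower. In either direction 3241 of the 3939 were called. Xaf1 had 6.37, 10.03 and 11.0 FPKM in KO_HFD and 18.3, 13.8 and 11.9 in WT_HFD. The groups did not overlap but KO_HFD replicate 3 and WT_HFD replicate 3 were close (edgeR log2 fold change -0.68 ± 0.25 SE and adjusted p = 0.250). Nmi had 7.89, 10.7 and 12.3 FPKM against 15.2, 15.5 and 12.9, likewise without overlap (edgeR log2 fold change -0.50 ± 0.19 SE and adjusted p = 0.260). Groups lay apart for 74.7% of all listed genes. None of these adjusted p-values passed 0.05, as for 0% of listed genes. Leaving out single libraries, 0 to 2 of the genes were called, 0 without KO_HFD replicate 1 and 0 without WT_HFD replicate 1. With TMM scaling over the listed genes Nmi was not called.

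Endothelial markers moved in the same direction, 7 of 10 listed and all 7 lower in KO_HFD, 6 of them called, with a median log2 fold change of -1.02. They summed to 699, 377 and 430 FPKM in KO_HFD and 1251, 1000 and 709 in WT_HFD. Ncr1 of NK cells and Ccr2 of monocytes, the listed genes of their lists, were lower as well, Ncr1 at 1.08, 2.96 and 5.22 against 7.76, 4.202 and 8.46 FPKM without a call and Ccr2 at 3.65, 8.76 and 9.16 against 11.0, 16.2 and 17.4 FPKM with one. The dendritic cell markers Cd209a and Clec9a and the epithelial markers Ager and Hopx were called lower too. Whether these shifts take part in the lower Nmi and Xaf1 was not tested.

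The fourth comparison set KO_HFD against KO_CHOW. Xaf1 was the only listed gene of the 9. It had 6.37, 10.03 and 11.0 FPKM in KO_HFD and 7.29, 5.23 and 3.97 in KO_CHOW, and the groups overlapped because KO_HFD replicate 1 lay below KO_CHOW replicate 1. It was called higher (edgeR log2 fold change 0.73 ± 0.29 SE and adjusted p = 0.718), as it did 29.3% of the 1628 listed genes. The groups were apart for 72.6% of listed genes, and 0.0614% of them had an adjusted p under 0.05. The call was lost without KO_HFD replicate 2 or 3 and without KO_CHOW replicate 2 or 3. In this comparison 477 listed genes were called higher and 777 lower, but 636 and 354 with TMM scaling, which moved the median of all listed genes from -0.51 to -0.26, and Xaf1 was called under both. Macrophage markers were lower in KO_HFD, 5 of 10 listed with 4 called, and summed to 2743, 4918 and 3993 FPKM against 7223, 8238 and 5492 (Lyz2 the most abundant). The T cell markers Cd8a and Trac, Mmp8 of neutrophils, Cd209a of dendritic cells and Epcam of epithelium were called lower, and the endothelial Emcn, the B cell gene Blk and Dcn of fibroblasts higher. With TMM scaling Cd8a, Trac, Cd209a, Epcam and Lyz2 were not called, while Gzma of NK cells and Pdgfra and Pdgfrb of fibroblasts were called higher. DESeq2 also called Gzma higher and Cd2 of T cells lower. The part of these shifts was not tested.

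Only Nmi and Xaf1 have values for the diet response in both genotypes. They have them because tables of these same libraries listed them. Both were listed as higher in WT_HFD than in WT_CHOW and as lower in KO_HFD than in WT_HFD. Their KO_CHOW values come from a further listing, of Nmi as higher in KO_CHOW than in WT_CHOW and of Xaf1 as higher in KO_HFD than in KO_CHOW. The sign and size of the difference below are thus in large part set by these listings, and its p is no independent test. In a fit over all 12 libraries, HFD changed Xaf1 by 1.82 (SE 0.30) in WT and 0.73 (SE 0.29) in TET2 KO on the log2 scale, and Nmi by 0.92 (SE 0.22) in WT and -0.06 (SE 0.21) in TET2 KO. The difference of the responses was -0.98 for Nmi (SE 0.30, adjusted p = 0.481 by edgeR) and -1.09 for Xaf1 (SE 0.41, adjusted p = 0.963). Both adjustments covered 23768 genes, as for WT_HFD against WT_CHOW, and none was made over the 975 genes fitted. Of the 975 genes with counts in all 12 libraries, 28.6% had a negative difference at an unadjusted p under 0.05, and 56.4% a difference of either sign. Nmi was called in each fit that left out 1 library, and Xaf1 in all but those without WT_CHOW replicate 2, KO_CHOW replicate 1 or WT_HFD replicate 1. Nmi means were 7.70 ± 0.965 FPKM in WT_CHOW, 10.8 ± 2.17 in KO_CHOW, 14.5 ± 1.45 in WT_HFD and 10.3 ± 2.21 in KO_HFD (SD, n = 3 each). Those of Xaf1 were 4.16 ± 1.02, 5.50 ± 1.68, 14.7 ± 3.30 and 9.13 ± 2.44 in the same order. On chow, the 12-library fit gave Xaf1 a log2 difference between TET2 KO and WT of 0.40 (SE 0.29), which did not pass the test. The other 7 genes have no KO_HFD values and were not compared here.

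**Figure D4:**
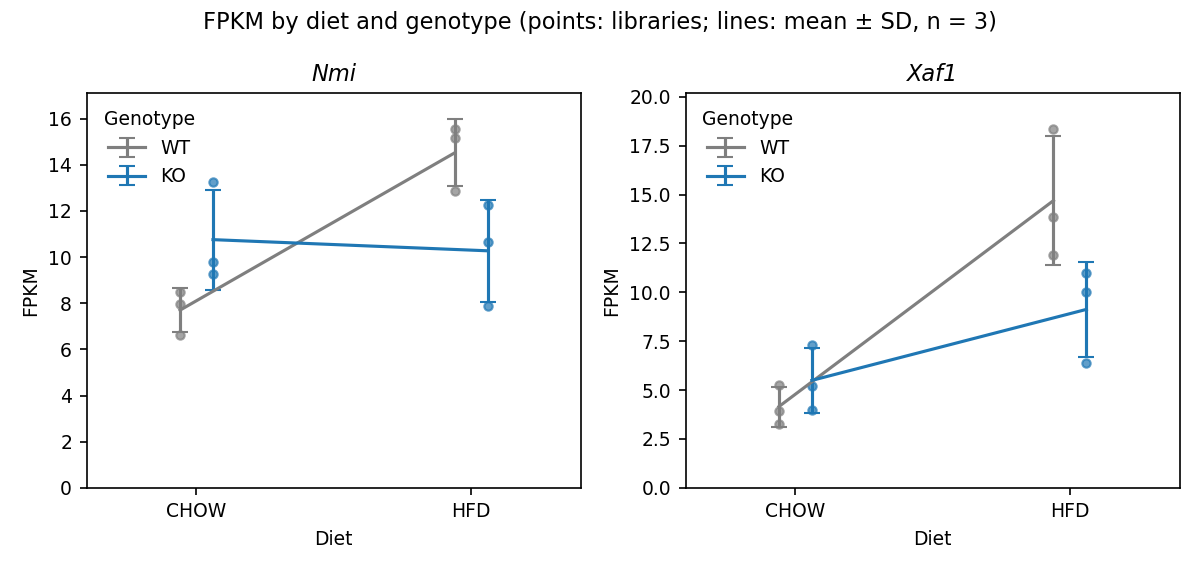
FPKM (vertical axes from 0) of Nmi and Xaf1 by diet in WT (grey) and TET2 KO (blue); points are mice, lines join the means and whiskers are SD (n = 3). Nmi means go from 7.70 to 14.5 in WT and from 10.8 to 10.3 in TET2 KO, and Xaf1 means from 4.16 to 14.7 and from 5.50 to 9.13.

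Other genes of these pathways were read from fixed lists. The counts for HFD in WT stand against 42.4% of all listed genes called higher and 49.2% called lower, and those for TET2 KO on chow against 30.6% and 46%. For KO_HFD, 43.1% of listed genes were called higher and 39.1% lower than in WT_HFD, and 29.3% higher and 47.7% lower than in KO_CHOW. With TMM scaling, computed over the listed genes alone, Tank, Samhd1, Ddx41, Cnpy3, Unc93b1 and Parp6 lost their call for HFD in WT. Tbkbp1, Ifi211, Oasl1 and Oasl2 gained one for TET2 KO on chow. Of 20 further genes of the RIG-I-like receptor pathway, 9 were listed for WT_HFD against WT_CHOW, with 6 called higher and 2 lower. The higher genes were led by the sensor Ifih1 (MDA5, log2 fold change 0.96, SE 0.17), Tbkbp1 (0.89), the regulator Dhx58 (LGP2, 0.76) and Irf7 (0.72). Trim25, the ubiquitin ligase of RIG-I, was called lower (log2 fold change -0.53, SE 0.13), and so was the antiviral zinc finger gene Zc3hav1 (-0.42). KO_HFD against WT_HFD shares the WT_HFD libraries with that comparison. There Ifih1 (-0.66) and Rnf135 (-0.50) were called lower, and Trim25 (0.57) and Zc3hav1 (0.62) higher. For KO_HFD against KO_CHOW Irf7 (0.63) and Isg15 (0.65) were called higher and Mavs (-0.61) lower. On chow, Tbkbp1 was the listed gene in TET2 KO (log2 fold change 0.57) and did not pass.

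Of 25 genes of cytosolic DNA sensing and of the Z-nucleic acid pathway, 11 were listed for HFD in WT, 5 called higher and 5 lower, shares near those of all listed genes. The higher genes included the DNA-binding proteins Ifi211 (log2 fold change 1.78, SE 0.42), Ifi204 (1.45) and Ifi203 (1.04) and Mlkl (0.58), the executioner of necroptosis, a form of cell death that ZBP1 can set off. Polr3d (-0.43), Rnaseh2a (-0.39), Enpp1 (-0.38) and Ripk1 (-0.37) were among the lower genes. In TET2 KO on chow Ifi203 was called higher (0.61). Ripk3, the kinase that ZBP1 engages, was called higher for KO_HFD against WT_HFD (0.49, SE 0.19), and Enpp1 lower for KO_HFD against KO_CHOW (-0.49). With TMM scaling, Enpp1 was not called in either comparison.

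Endosomal Toll-like receptors detect nucleic acids taken up from outside the cell. Of 14 genes of that pathway, 6 were listed for HFD in WT and all 6 were called higher, 4 of them also with TMM scaling, led by Tlr13 (log2 fold change 1.08, SE 0.25), Tlr3 (1.03, SE 0.22), Tlr7 (0.87, SE 0.22) and Irf5 (0.57). Tlr3 was called lower for KO_HFD against WT_HFD (-0.92, SE 0.23), and Irf5 higher for KO_HFD against KO_CHOW (0.52). The listed gene on chow, Tlr13, had a log2 fold change of 0.53 that did not pass.

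Another list holds effectors that act on double-stranded RNA. Of 10, 8 were listed for HFD in WT and all 8 were called higher, with a median log2 fold change of 1.53. The 2′-5′ oligoadenylate synthetase genes Oas1g (2.44, SE 0.68), Oas2 (2.15, SE 0.37), Oas3 (1.74, SE 0.45) and Oasl2 (1.73, SE 0.39) led, and their reads can be divided among similar genes. In TET2 KO on chow 4 were listed and higher, with Oas3 (1.03, SE 0.41) and Oas2 (1.00, SE 0.42) called. Oasl2 was called lower for KO_HFD against WT_HFD (-0.64, SE 0.24), where Oas1c (-0.52) did not pass, and Oasl1 (0.75) and Oas1b (0.52) higher for KO_HFD against KO_CHOW.

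Relatives of the TRIM and PARP genes were listed in part. Trim30c (log2 fold change 1.33), Trim30d (0.79), Trim21 (0.66), Trim12c (0.47) and Trim30b (0.45), 5 of 12 related TRIM genes, were listed and called higher on HFD in WT, and Trim30d (0.51), Trim30b (0.44) and Trim12c (0.41) in TET2 KO on chow, where Trim12c was not called by DESeq2 or with TMM scaling. Trim30c had a value of -0.93 (SE 0.43) for KO_HFD against WT_HFD that did not pass. Of 12 PARP genes and partners, 5 were listed on HFD and all called higher, Parp6 (0.36) not with TMM scaling, led by Parp12 (0.93), Parp9 (0.71), Parp14 (0.65) and Dtx3l (0.49), the binding partner of PARP9. Parp12 was called lower for KO_HFD against WT_HFD (-0.62, SE 0.16). Parp16 was called lower for KO_HFD against KO_CHOW (-0.55) but not with TMM scaling, and Parp3 on chow had a log2 fold change of 0.26 that did not pass. Xiap (0.47, SE 0.12), the protein that XAF1 binds, and Ifi35 (0.39), the partner of NMI, were 2 of 5 partner genes listed on HFD and both were called higher. Birc2, a relative of Xiap, was called higher for KO_HFD against WT_HFD (0.38).

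Interferon reception lies downstream of the sensors. Of 15 genes, 6 were listed for HFD in WT and all 6 were called higher, led by Usp18 (log2 fold change 1.62, SE 0.26), a brake on the type I interferon receptor, Ifng (0.99, SE 0.29), Ifnlr1 (0.77) and Ifnar2 (0.59, SE 0.16). Ifnlr1 (0.61, SE 0.23) was called higher in TET2 KO on chow. For KO_HFD against WT_HFD, Usp18 was called lower (-0.60, SE 0.23), and Jak2 (0.40) and Ifngr2 (0.34) higher, the latter pair not with TMM scaling. Ifnar1, Ifngr2 and Stat2 were listed for KO_HFD against KO_CHOW with values of 0.37, 0.34 and 0.31 that did not pass. All 3 were called with TMM scaling and also by DESeq2.

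**Figure D5:**
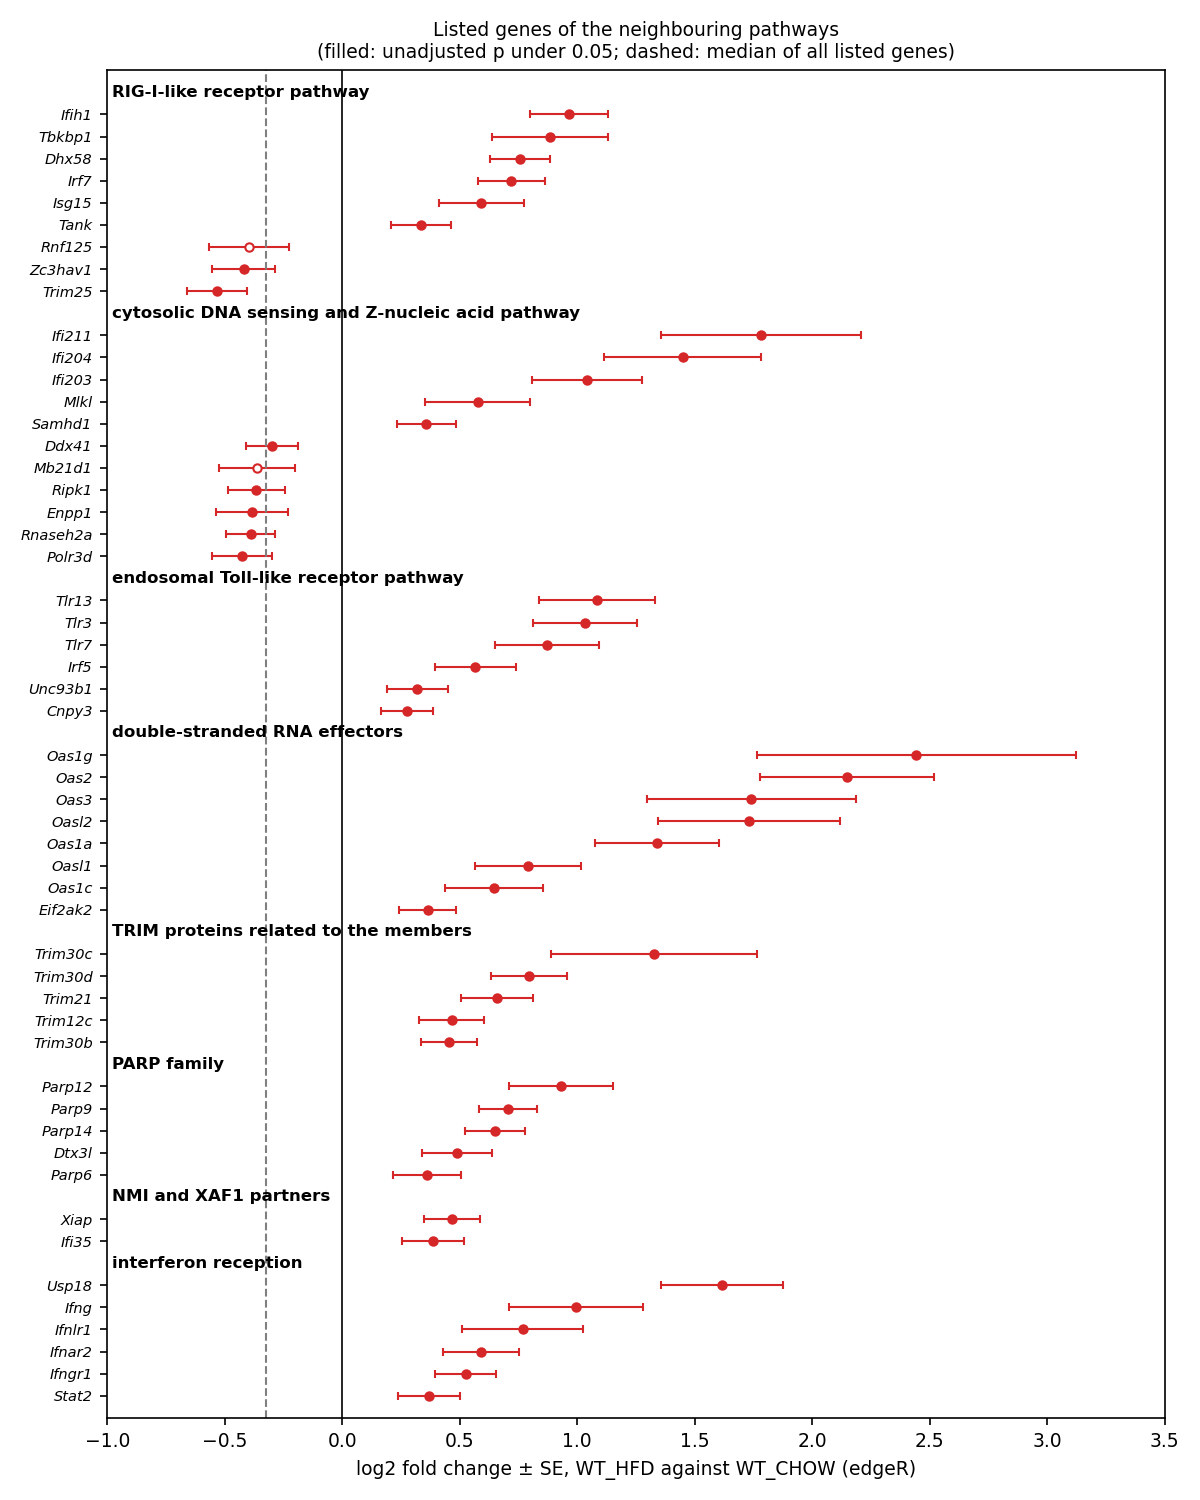
log2 fold change ± SE (horizontal axis) of every listed gene of the 8 pathway lists for WT_HFD against WT_CHOW; filled points have an unadjusted p under 0.05 by edgeR, and the dashed line is the median of all listed genes, -0.32 (0.27 with a filter on low counts). Genes of 6 lists lie right of 0, up to 2.44 for Oas1g, and the RIG-I-like receptor and DNA sensing lists hold genes on both sides.

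The 8 genes with values in WT_CHOW, KO_CHOW and WT_HFD were also compared with each other. Over these 9 libraries Pearson's r between pairs on log2(FPKM + 1) ran from 0.68 to 0.93 with a median of 0.83 over 28 pairs, a description of libraries that share depth and cell make-up, and of genes that have these values because they were listed against the same WT_CHOW libraries. After each group's mean was removed the range was -0.22 to 0.87, with a median of 0.36 and 27 of 28 pairs above 0. WT_HFD replicate 1 was the highest of its group for 5 of the 8 genes, KO_CHOW replicate 1 for 5 and WT_CHOW replicate 3 for 5.

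Among 702 genes with 12 values and a mean of at least 1 FPKM, those most like the mean profile of Nmi and Xaf1 were Nod1 (Pearson's r 0.95 over 12 libraries), a cytosolic sensor of bacterial cell wall, the immunoproteasome subunit Psmb10 (0.94), the lipase Lipe (0.94), the class I histocompatibility gene H2-T24 (0.94) and Tapbp (0.93), which loads peptides on class I molecules. For the profile of the 8 genes over 9 libraries, a measure added after the data were seen, the leading genes of 948 were Ifi47 (0.98), an interferon-induced GTPase, Dguok (0.98), Tmem94 (0.98), Clec2d (0.97) and Arhgef3 (0.97).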

How the data were processed

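RNA was taken from CD31+ lung cells of 12 mice, 3 in each of 4 groups, as poly(A) libraries sequenced in pairs. Per the labels and methods, the authors aligned reads to mm10 with HISAT2, counted them with featureCounts and compared groups with DESeq2. Versions, annotation and strand setting are not given in the sources used here. The deposited tables hold raw counts, normalized counts (the authors' signal, counts divided by size factors) and FPKM per library. The deposited p-value columns were read only to learn the listing threshold (unadjusted p under 0.05) and the number of genes adjusted over. Deposited fold changes were not used.

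Counts of all listed genes were fitted with edgeR 4.0.16 (quasi-likelihood test) in R 4.3.3, with size factors recovered from the tables, and called at an unadjusted p under 0.05. Benjamini-Hochberg adjustment covered 18463, 23768, 18703 and 19511 genes in the 4 comparisons in the order reported. SE is the absolute log2 fold change over the square root of F. The interaction was fitted on 975 genes with counts in 12 libraries and adjusted over 23768, the largest of these numbers. With 3 mice against 3, an exact permutation test cannot go below p = 0.1, so none is given. Alternatives were DESeq2 1.42.0, limma 3.58.1 on log2(normalized count + 1), TMM factors, library totals, a mean of at least 10 normalized counts, a replicate block, adjusted p, each library left out and all 12 libraries in 1 fit. The TMM factors came from the listed genes alone, all listed for a difference, and the effect of this choice was not tested. The fits were tested on simulated data. Levels across genes or tables are FPKM. The labels call the libraries biological replicates.

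The 9 genes were named whole. From each pathway list the genes called were named, at most the 4 with the largest change per comparison. Also named were the 5 genes most like Nmi and Xaf1 over 12 libraries and the 5 most like the 8 genes over 9 libraries. Any further list or marker gene in the text was named after its values were seen. Results for 1 further gene were left out and are not reported here. The members, lists and tests were chosen with earlier results of these data known.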

Additional observations from a re-analysis of the deposited data

Results flagged for a closer look

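By the interaction test the response of 2 genes to HFD differed between the genotypes at an unadjusted p under 0.05. So did that of 56.4% of the 975 genes tested. Neither gene had an adjusted p under 0.05, but that adjustment covered 23768 genes, and none was made over the 975 alone. Both could be tested only because tables of these same libraries listed them. Both were listed for WT_HFD against WT_CHOW and for KO_HFD against WT_HFD. Their KO_CHOW values come from a further listing, of Nmi for KO_CHOW against WT_CHOW and of Xaf1 for KO_HFD against KO_CHOW. These listings in large part set the sign and size of the difference. For Nmi the response in TET2 KO minus that in WT was -0.98 on the log2 scale (SE 0.30, adjusted p = 0.481 by edgeR). It ran from -1.30 to -0.80 over 18 alternatives, each with an unadjusted p under 0.05, and its adjusted p ran from 0.157 to 1. For Xaf1 the difference was -1.09 (SE 0.41, adjusted p = 0.963 by edgeR), from -1.42 to -0.83, with 15 of 18 alternatives under 0.05 and an adjusted p of 0.565 to 1. All 3 WT_HFD libraries lay above all 3 WT_CHOW libraries for both genes, while the TET2 KO libraries overlapped between the diets. Endothelial markers were higher in WT_HFD than in WT_CHOW and lower in KO_HFD than in WT_HFD, and their part in these differences was not tested.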

How the results depend on the processing

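None of the 264 log2 fold changes of the 9 genes refitted under alternatives changed sign, and 228 stayed on the same side of their threshold. At an adjusted p under 0.05 in place of the unadjusted one, edgeR called 0 of 8 genes for KO_CHOW against WT_CHOW, 4 of 8 for WT_HFD against WT_CHOW, 0 of 2 for KO_HFD against WT_HFD, 0 of 1 for KO_HFD against KO_CHOW and 0 of 2 for the interaction. In 1 fit of all 12 libraries only Nmi and Xaf1 had values, so the counts were 1 for KO_CHOW against WT_CHOW and 2 for WT_HFD against WT_CHOW. With TMM scaling 1 of 2 genes was called for KO_HFD against WT_HFD. With each library left out the calls ran from 2 to 7, 8 to 8, 0 to 2, 0 to 1 and, for the interaction, 1 to 2, the cause not being tested. Adjusted p depended on the tool, since for WT_HFD against WT_CHOW DESeq2 put 8 of 8 genes under 0.05, limma 5, TMM 5, library totals 4 and the filter on low counts 3. With the replicate number of the labels as a block, 0 of 8 had an adjusted p under 0.05, Parp10 lost its call for KO_CHOW against WT_CHOW (leaving 7 called), and no other call changed. Same-numbered libraries did not deviate together (correlations of -0.139 to 0.212), so the numbers are taken as names only. Over all listed genes, calls by edgeR numbered 397 higher and 597 lower for KO_CHOW against WT_CHOW, and 498 and 506 with TMM. For KO_HFD against KO_CHOW they were 477 and 777, and 636 and 354 with TMM, where the median log2 fold change went from -0.51 to -0.26. With a filter on low counts the median turned from -0.32 to 0.27 for WT_HFD against WT_CHOW and from 0.33 to -0.28 for KO_HFD against WT_HFD. For the interaction the median with TMM went from 0.05 to -0.30. Among all listed genes edgeR put 0, 1368, 0, 1 and, for the interaction (adjusted over 23768 genes), 0 under an adjusted p of 0.05. DESeq2 put 12, 4587, 577, 70 and 180 there. Without WT_CHOW replicate 2 the calls for KO_CHOW against WT_CHOW fell from 994 to 483. Genes outside the tables were not analysed here, and the 9 genes had 487 to 7487 reads per library, which sets their counting error.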
